A study of Mus musculus with 26 samples.

Results

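The 10 genes described here are negative-feedback regulators and outputs of the ERK signalling pathway, measured in the left ventricle of 26 mice. They were chosen by gene symbol and comprise the dual-specificity phosphatases Dusp1, Dusp4, Dusp5 and Dusp6, the Sprouty genes Spry1, Spry2 and Spry4, the Sprouty-related genes Spred1 and Spred2, and the ETS transcription factor Etv5. All 10 were present among the 56941 genes of the count matrix and all 10 were among the 15357 genes with enough reads to be tested. The study deleted Ppp2r2a, the gene of the PP2A regulatory subunit B55α, in cardiomyocytes. Knockout mice (cKO, genotype aMHC-CreTg/0-Ppp2r2aL/L) carried a Cre transgene driven by the cardiomyocyte promoter aMHC, and control mice (Ctrl, genotype aMHC-Cre0/0-Ppp2r2aL/L) carried the same floxed alleles without Cre. There were 6 Ctrl and 7 cKO mice of each sex, all 12 to 16 weeks old, and every mouse in all 4 groups had received saline from an osmotic minipump for 2 weeks. The labels give the strain as C57BL/6N, whereas the design text describes a mixed background in which the Cre line was FVB. Mice that carried Cre alone were not analysed here, so an effect of Cre or of FVB sequence and an effect of the deletion cannot be told apart.

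ERK is the last kinase of the RAS, RAF and MEK cascade that growth-factor receptors switch on, and in the heart it is best known for its part in hypertrophic growth. Active ERK induces transcription of its own inhibitors: DUSP enzymes remove the activating phosphates from MAP kinases, and Sprouty and Spred proteins block the cascade at the level of RAS and RAF. Transcripts of these genes, together with Etv5, are therefore widely used as a readout of how much ERK signalling a tissue has recently had. PP2A with a B55 subunit has been reported to dephosphorylate KSR1, a scaffold of the cascade, which places the deleted subunit upstream of ERK. Abundance of the transcripts says nothing directly of ERK phosphorylation, which these data did not measure.

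Libraries held 14403102 to 30867399 counts. Ppp2r2a was at 11.8 to 16.2 CPM (counts per 1000000 counts of the library, with totals scaled by TMM) in cKO males against 24.1 to 47.7 CPM in Ctrl males, and at 9.96 to 16.2 CPM in cKO females against 36.2 to 46.7 CPM in Ctrl females. Ctrl males 3 and 6 stood apart with 24.9 and 24.1 CPM, above every cKO mouse and below every other Ctrl mouse. All 6 cardiomyocyte markers were present, with summed levels of 47951 to 67051 CPM per mouse, and 3 atrial markers summed to 1.14 to 2.31 CPM. Only 1 of these atrial markers had enough reads to be tested, and 2 had no counts in any Ctrl female. The females numbered 2, 1 Ctrl and 1 cKO, stood apart on the first principal component of the within-group variation (33.5 and 35.5, against -17.2 to 12.8 in the other 24 mice). They also held the 2 highest summed levels of immediate-early genes (954 and 697 CPM, against 315 to 504 CPM) and of glucocorticoid-responsive genes (1049 and 1012 CPM, against 423 to 893 CPM). Ctrl female 2 had the highest sum of mesothelium markers (25.5 CPM, against 3.19 to 7.67 CPM in every other mouse). It also had the lowest sum of endothelial markers (812 CPM). The part of tissue composition in its values was not tested. Values of the members that come closest to a call, their covariation and the list results that these mice change most are given with and without them.

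Within the ventricle the 10 transcripts spanned a wide range of abundance. Per kilobase of exon, Dusp1 was highest with a mean of 21.2 CPM per kb over the 26 mice, followed by Spry1 with 11.7, Spred2 with 7.42, Dusp6 with 7.31, Spry2 with 5.92 and Etv5 with 5.63 CPM per kb. Spry4 (3.72 CPM per kb), Spred1 (3.58), Dusp5 (2.07) and Dusp4 (1.02) were the lowest. Some neighbours in this order were not separated beyond their spread: Spred2 exceeded Dusp6 in 17 of 26 mice, Dusp6 exceeded Spry2 in 23, Spry2 exceeded Etv5 in 17 and Spry4 exceeded Spred1 in 17. Every other neighbouring pair kept its order in all 26 mice. Variation between mice of a group also differed among the genes, from a coefficient of variation of 10.9% for Spred2 to 39.2% for Dusp4, which had only 27 to 130 counts per library. Dusp5, at 51 to 156 counts, had 21.7%, and the part of low counts in the spread of Dusp4 was not tested.

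**Figure D1:**
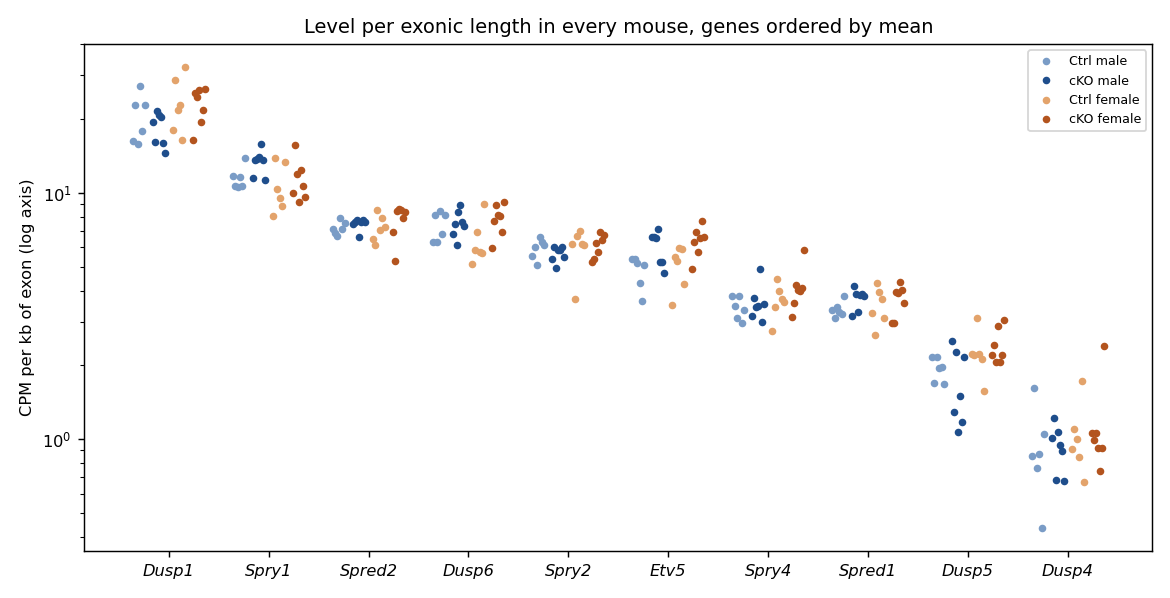
Level of each gene per kilobase of exon (CPM per kb, log axis) in each of the 26 mice, with genes ordered by their mean and points coloured by group. Dusp1 lies highest (mean 21.2 CPM per kb) and Dusp4 lowest (1.02), and the 4 groups overlap for every gene.

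The central comparison asked whether loss of B55α in cardiomyocytes moved this feedback programme. None of the 10 genes passed an adjusted p under 0.05 in males, in females or in the mean of both sexes, by edgeR's quasi-likelihood test with Benjamini-Hochberg adjustment over all genes tested. Over all tested genes that test called 0.443% in males, 0.0326% in females and 1.33% for the mean genotype effect. At an unadjusted p under 0.05 the members counted 1 in males (Etv5; 13.2% of all genes), 2 in females (Dusp6 and Etv5; 5.15%) and 1 for the mean effect (Etv5; 14.1%). DESeq2 called Etv5 for the mean effect and no member in either sex, and limma voom called no member in any of the 3. No member had cKO and Ctrl values that did not overlap, against 1.28% of all genes in males and 0.169% in females. The 95% intervals of all 10 log2 fold changes lay between -0.53 and 0.57 in males and between -0.39 and 0.69 in females. These intervals hold for RNA of the whole ventricle, and a change within cardiomyocytes alone was not measured.

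The signs of these differences were set beside those of all genes. In males 7 of the 10 members had a log2 fold change above 0, against 50.3% of all genes, and their median was 0.05 against 0.00 over all genes. Females had 9 of 10 above 0, against 51.1% of all genes, with a median of 0.10 against 0.00. For the mean of both sexes the count was 7 of 10, against 51.6%, with a median of 0.09 against 0.00. These signs were not tested as a set, and members that vary together across mice do not give independent counts. The male count includes Dusp4 at 0.01, whose sign changed in some alternatives. In whole-tissue RNA fewer cells of a type and less RNA per cell cannot be told apart.

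**Figure D2:**
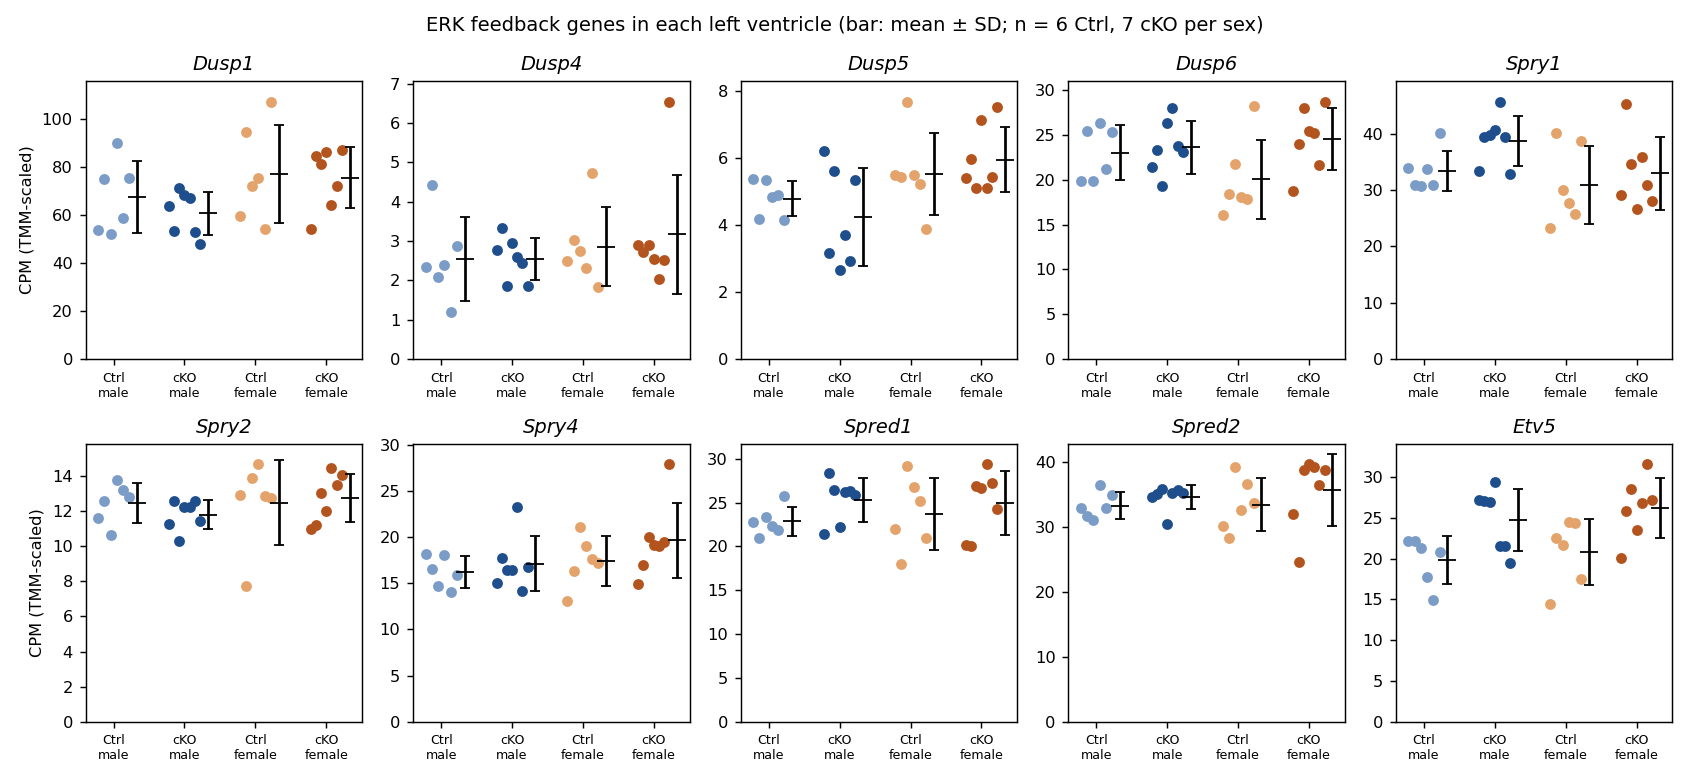
CPM of each of the 10 genes in every mouse by genotype and sex, with the mean ± SD of each group beside its points (n = 6 Ctrl and 7 cKO per sex). For Etv5, 4 cKO males and 5 cKO females lie above the highest Ctrl mouse of their sex. For Spred1 5 cKO males lie above the highest Ctrl male, and for Dusp5 the cKO males lie both below and above the narrow Ctrl range.

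Etv5 (ENSMUSG00000013089, chromosome 16), an ETS factor of the PEA3 group whose transcription ERK and receptor tyrosine kinases drive, had the smallest p of the 10 genes in both sexes. In Ctrl males it ran from 14.9 to 22.2 CPM with a median of 21.0 (19.8 ± 2.92, mean ± SD, n = 6), and in cKO males from 19.5 to 29.4 CPM with a median of 26.9 (24.7 ± 3.80, n = 7). In Ctrl females it ran from 14.4 to 24.5 CPM with a median of 22.2 (20.8 ± 4.06, n = 6), and in cKO females from 20.1 to 31.6 CPM with a median of 26.8 (26.2 ± 3.66, n = 7). The groups overlapped in each sex, and 6 of 7 cKO mice lay above the Ctrl mean in males and likewise in females. On the log2 scale males differed by 0.32 ± 0.12 (SE), with an edgeR adjusted p of 0.244, and females by 0.33 ± 0.12, with an edgeR adjusted p of 0.918. Averaged over both sexes it was 0.33 ± 0.09, with a 95% interval of 0.14 to 0.51, an unadjusted edgeR p of 0.00101 and an adjusted p of 0.0583. Whether it passed the threshold depended on the processing. The adjusted p was 0.012 with DESeq2, 0.0398 in edgeR on genes with a mean of at least 5 CPM, and 0.012 to 0.130 over all alternatives. With each mouse left out in turn it was 0.0386 to 0.108, falling below 0.05 without cKO male 7 (0.0386) and without cKO female 1 (0.0437). The log2 fold change itself stayed between 0.28 and 0.35 in all of these fits. Without the females numbered 2 Etv5 had log2 fold changes of 0.36 in females and 0.34 in the mean effect (edgeR adjusted p = 0.925 and 0.0739).

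Among the phosphatases, Dusp6 and Dusp5 are the ERK-selective members, Dusp6 acting in the cytoplasm and Dusp5 in the nucleus, while Dusp4 and Dusp1 are nuclear enzymes that also act on the stress-activated kinases. Dusp6 (ENSMUSG00000019960, chromosome 10) ran from 16.1 to 28.2 CPM with a median of 18.2 in Ctrl females and from 18.8 to 28.7 CPM with a median of 25.2 in cKO females. All 7 cKO females lay above the Ctrl median and 4 of 6 Ctrl females lay below the lowest cKO female, although Ctrl female 6, at 28.2 CPM, lay above all but 1 of the cKO females. The log2 fold change was 0.29 ± 0.12 in females (95% interval 0.05 to 0.53, edgeR adjusted p = 0.932). Leaving out Ctrl female 6 took it to 0.41, and leaving out the females numbered 2 to 0.28. In males Dusp6 had medians of 23.3 CPM in both genotypes and a log2 fold change of 0.04 ± 0.11 (edgeR adjusted p = 0.93). The difference between the sexes in this effect was 0.26, with a 95% interval of -0.08 to 0.59 and an unadjusted edgeR p of 0.129, so a sex-dependent response was not shown.

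Dusp5 (ENSMUSG00000034765, chromosome 19) had a wider spread in cKO males than in Ctrl males. Ctrl males held a narrow range of 4.15 to 5.36 CPM with a median of 4.85, whereas cKO males ran from 2.66 to 6.21 CPM with a median of 3.70. The cKO males numbered 2, 4, 5 and 6 had the 4 lowest values of all 26 mice (2.66 to 3.70 CPM), and the other 3 lay at 5.35 to 6.21 CPM. Ctrl females ran from 3.89 to 7.67 CPM (median 5.45) and cKO females from 5.11 to 7.50 CPM (median 5.43). The log2 fold changes for genotype were -0.18 ± 0.17 in males and 0.10 ± 0.17 in females. Dusp1 (ENSMUSG00000024190, chromosome 17), an immediate-early gene that stress and growth stimuli induce within minutes, had medians of 66.9 CPM in Ctrl and 63.9 CPM in cKO males, and 73.6 and 81.0 CPM in Ctrl and cKO females. Its log2 fold changes were -0.15 ± 0.16 and -0.03 ± 0.16, and the latter turned positive in some alternatives. Dusp4 (ENSMUSG00000031530, chromosome 8) had medians between 2.36 and 2.73 CPM in the 4 groups. Its log2 fold changes of 0.01 ± 0.26 in males and 0.15 ± 0.26 in females had the widest intervals of the 10 genes, -0.53 to 0.54 and -0.39 to 0.69, and the male value took either sign across the alternatives.

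Sprouty proteins act at the membrane, downstream of receptor tyrosine kinases. Spry1 (ENSMUSG00000037211, chromosome 3) was the most abundant of them. In Ctrl males it ran from 30.7 to 40.1 CPM with a median of 32.4, and in cKO males from 32.8 to 45.7 CPM with a median of 39.5. All 7 cKO males lay above the Ctrl median, and 2 lay above the highest Ctrl male. The log2 fold change was 0.22 ± 0.12 in males (95% interval -0.04 to 0.47, edgeR adjusted p = 0.468) and 0.09 ± 0.12 in females, where the ranges of 23.3 to 40.1 CPM in Ctrl and 26.7 to 45.3 CPM in cKO overlapped broadly. The highest Spry1 values of the females were those of the mice numbered 2 in each genotype. Spry2 (ENSMUSG00000022114, chromosome 14) had medians of 12.2 to 13.1 CPM in the 4 groups and log2 fold changes of -0.08 ± 0.10 in males and 0.03 ± 0.10 in females. Spry4 (ENSMUSG00000024427, chromosome 18) had medians of 16.2 and 16.5 CPM in Ctrl and cKO males and 17.4 and 19.2 CPM in Ctrl and cKO females, with log2 fold changes of 0.08 ± 0.12 and 0.18 ± 0.12. Neither gene's genotype effect was larger than the spread between mice.

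Spred proteins bind the RAS GTPase-activating protein neurofibromin and bring it to RAS. Spred1 (ENSMUSG00000027351, chromosome 2) ran from 21.0 to 25.8 CPM with a median of 22.5 in Ctrl males and from 21.4 to 28.3 CPM with a median of 26.2 in cKO males, where 5 of 7 mice lay above the highest Ctrl value. Its log2 fold change in males was 0.15 ± 0.10, with a 95% interval of -0.05 to 0.35 and an edgeR adjusted p of 0.55. In females the ranges were 18.0 to 29.2 CPM in Ctrl and 20.1 to 29.4 CPM in cKO, with a log2 fold change of 0.08 ± 0.10. Spred2 (ENSMUSG00000045671, chromosome 11) was the least variable of the 10 genes, with medians of 32.8 CPM in Ctrl and 35.2 CPM in cKO males, and of 33.1 and 38.8 CPM in Ctrl and cKO females. Its log2 fold changes were 0.06 ± 0.08 in males and 0.09 ± 0.09 in females, and their 95% intervals ended at 0.23 and 0.27.

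**Figure D3:**
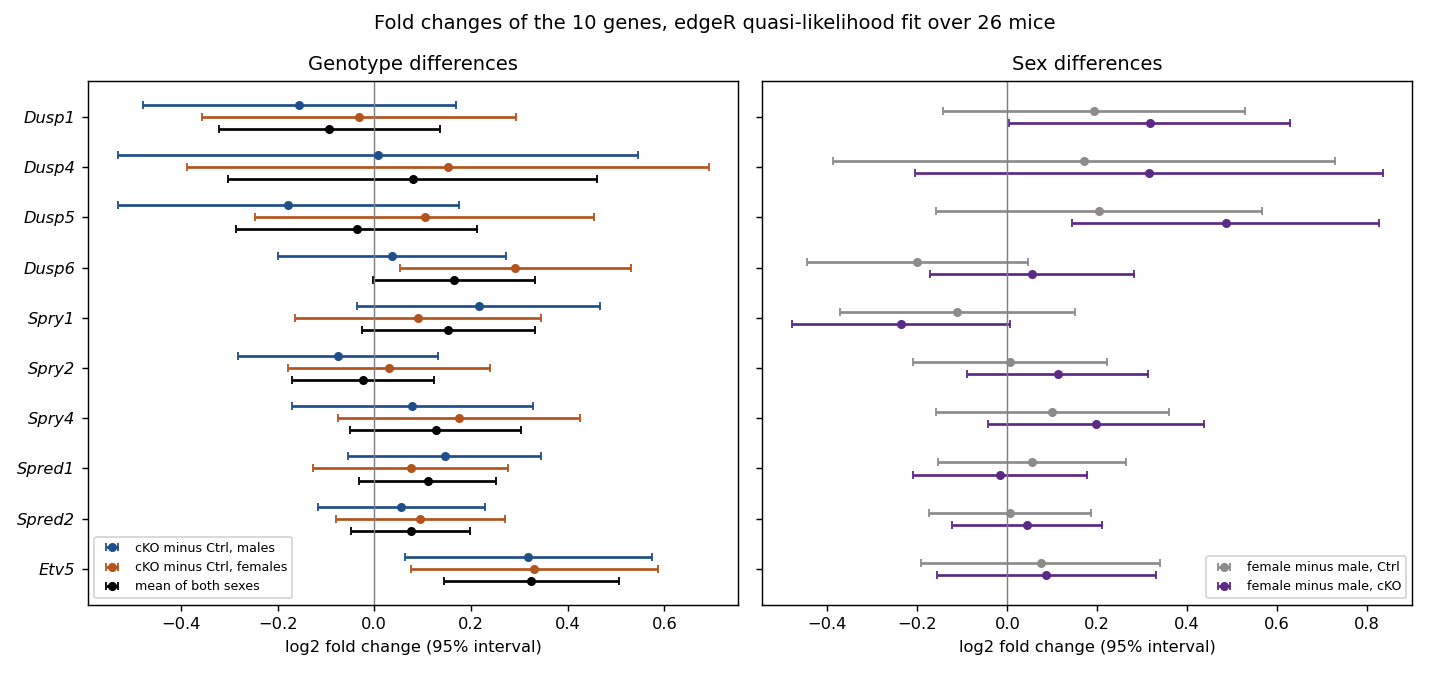
Log2 fold changes of the 10 genes with 95% intervals from the edgeR fit over 26 mice, for cKO against Ctrl in males, in females and in the mean of both (left) and for females against males within Ctrl and within cKO (right). The intervals of Etv5 exclude 0 in all 3 genotype contrasts before adjustment for multiple testing, as does that of Dusp6 in females. For sex within cKO those of Dusp5 and, narrowly, Dusp1 exclude 0.

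A direct test of whether genotype acted differently in females and males found no member past an adjusted p under 0.05 by edgeR, DESeq2 or limma voom, and none at an unadjusted edgeR p under 0.05. The test called 0% of all genes, and 3.96% had an unadjusted p under 0.05. Etv5 had nearly the same genotype effect in each sex, with a difference of 0.01 and a 95% interval of -0.35 to 0.37. The sign of the difference was above 0 for 8 of the 10 members, against 51.6% of all genes. The greatest differences were those of Dusp5 (0.28, interval -0.22 to 0.78) and Dusp6 (0.26).

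Sex itself was compared within each genotype. Within Ctrl no member was called by edgeR, DESeq2 or limma voom (0.638% of all genes by edgeR), none had an unadjusted edgeR p under 0.05 (12.1% of all genes) and none had groups that did not overlap (1.02%). In Ctrl 8 of 10 members had a female minus male log2 fold change above 0 (51.1% of all genes), and in cKO likewise 8 of 10 (51.9%). Within cKO no member was called by edgeR (2.7% of all genes) or DESeq2, 2 had an unadjusted edgeR p under 0.05 (17.3%), and none had groups that did not overlap (1.09%). Those 2 were Dusp5 and Dusp1. Dusp5 was higher in cKO females than in cKO males by 0.49 ± 0.17 on the log2 scale (95% interval 0.14 to 0.83), with all 7 females above the male mean and 4 of 7 males below the lowest female. Its adjusted p was 0.109 in edgeR and 0.0447 in limma voom, the only alternative that called it, and 0.0447 to 0.168 over all alternatives. Dusp1 differed by 0.32 ± 0.15 (edgeR adjusted p = 0.282), and 5 of 7 cKO females lay above the highest cKO male at 71.1 CPM. Without the females numbered 2 the values were 0.48 for Dusp5 and 0.29 for Dusp1 (edgeR adjusted p = 0.145 and 0.365). Of 16 immediate-early genes 15 had values above 0 in the same contrast, with a median of 0.22 and 3 at an unadjusted edgeR p under 0.05, and without those 2 mice 8 of 16 did, with a median of 0.03. There too the cardiomyocyte marker Tnni3, cardiac troponin I, was higher in females by 0.24 (edgeR adjusted p = 0.00821), and the 6 cardiomyocyte markers summed to 52463 to 62749 CPM in cKO females against 47951 to 58239 CPM in cKO males. DESeq2 and limma voom, but not edgeR, also called the fibroblast marker Col1a1 and the adipocyte marker Cfd for sex within cKO. All 3 adipocyte markers were higher in cKO females, with a median of 1.54. The part of these genes in the Dusp5 and Dusp1 values was not tested.

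The rest of the pathway was read from 7 lists. For genotype, edgeR called no gene of any of them in males, in females or in the mean of both sexes. In the cascade from SOS to ERK all 17 genes were tested, with 3 at an unadjusted edgeR p under 0.05 in males, 2 in females and 3 in the mean effect, against 13.2%, 5.15% and 14.1% of all genes. Fold changes above 0 numbered 10 of 17 in males and 9 in females, against 50.3% and 51.1% of all genes. Sos1, the exchange factor that loads RAS with GTP, had the smallest p: its log2 fold change was 0.21 ± 0.07 in males, 0.16 ± 0.07 in females and 0.19 ± 0.05 in the mean effect. That mean effect had an edgeR adjusted p of 0.0527 and was the only call of this list by DESeq2 and by limma voom. Mapk3, which encodes ERK1, had log2 fold changes of 0.01 in males and 0.02 in females. For the scaffold gene Ksr1 they were -0.02 and 0.21, and the value in females had an unadjusted edgeR p of 0.0336 and an adjusted p of 0.941.

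Among 4 RAS GTPase-activating proteins all 4 fold changes lay above 0 in each sex, against 50.3% of all genes in males and 51.1% in females. Rasa1 led in males (0.16 ± 0.06, edgeR adjusted p = 0.178). This list had 1 gene at an unadjusted edgeR p under 0.05 in males, 0 in females and 2 in the mean effect. Of 29 ligands and receptors 27 were tested, 4 of them at an unadjusted p under 0.05 in males, 0 in females and 4 in the mean effect. For both lists the shares of all genes at that level were 13.2%, 5.15% and 14.1%. Of the 27 ligands and receptors 19 had fold changes above 0 in males and 17 in females. Nrg1, the ligand of ERBB4 receptors on cardiomyocytes, was at a mean of 3.47 CPM in cKO and 1.91 CPM in Ctrl males, a log2 difference of 0.86 ± 0.34 (edgeR adjusted p = 0.253). In the 13 tested genes of the other ERK-responsive list, 10 fold changes lay above 0 in males and 11 in females, against 50.3% and 51.1% of all genes, and 1, 1 and 2 genes had an unadjusted p under 0.05 in males, females and the mean effect, against the same 13.2%, 5.15% and 14.1%. The leading ones were Etv1, a further PEA3-group factor, in males (0.28 ± 0.11, edgeR adjusted p = 0.279) and Phlda1 in females (0.39 ± 0.16, edgeR adjusted p = 0.932). The medians of this list, 0.17 in males and 0.08 in females, stood beside 0.00 over all genes. In females the smallest p of the other 2 lists belonged to Rasa2 (0.15 ± 0.10) and to Erbb2, a co-receptor for Nrg1 signals (0.16 ± 0.08). DESeq2 and limma voom called no gene of these 3 lists for genotype.

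Immediate-early genes, the transient transcripts that Dusp1 belongs with, had medians of -0.10 in males and -0.11 in females over 16 tested genes. Of these 7 and 4 lay above 0, against 50.3% and 51.1% of all genes. Ier2 (-0.35 ± 0.12, edgeR adjusted p = 0.164) had the smallest p in males and Fosb (-0.998 ± 0.577) in females, where 1 of 6 Ctrl mice reached 5.95 CPM against a Ctrl median of 0.444 and a cKO median of 0.904 CPM. In males, females and the mean effect 3, 0 and 0 genes had an unadjusted edgeR p under 0.05. The shares of all genes were 13.2%, 5.15% and 14.1%. Without the females numbered 2 the female median of the list was 0.07, with 10 of 16 genes above 0, and Fosb came to -0.13 ± 0.49. The 5 tested further DUSP genes had none at that level for genotype. Their single call by edgeR, DESeq2 and limma voom was Dusp3, lower in cKO females than in cKO males by 0.24 (edgeR adjusted p = 0.0219). All 7 glucocorticoid-responsive genes had log2 fold changes above 0 in males, with a median of 0.35, whereas 6 of 7 lay below 0 in females, with a median of -0.10, and all 7 lay below 0 for the difference between the sexes, with a median of -0.33. Without the females numbered 2 these medians were 0.35, -0.02 and -0.30. Across mice Spry1 had r = 0.667 with the sum of this list (rho = 0.595, permutation p = 0.00182 and 0.00441, adjusted 0.098 over 190 relations), r = 0.562 without the 2 farthest mice and r = 0.455 without the females numbered 2. With the same sum Spred2 had r = -0.629 (adjusted permutation p = 0.098), and -0.349 without the females numbered 2. Spry2 had r = -0.505 and Dusp1 r = 0.467 (adjusted permutation p = 0.348 each). No member passed with this list. The list had 1 gene at an unadjusted p under 0.05 in males, Cdkn1a, and 0 in females and the mean effect. The shares of all genes were again 13.2%, 5.15% and 14.1%. Fkbp5 of that list was higher in Ctrl females than in Ctrl males by 1.18 (edgeR adjusted p = 0.0457), a call that DESeq2 shared and limma voom did not, and that was lost without the females numbered 2 (edgeR adjusted p = 0.0657). No gene of these 3 lists was called for genotype by DESeq2 or limma voom. Of the cell type markers Tnni3 was lower in cKO males (-0.24, edgeR adjusted p = 0.0316) and in the mean effect (-0.17, adjusted p = 0.0168). DESeq2 also called Tnnt2, cardiac troponin T, in males (edgeR log2 fold change -0.22, adjusted p = 0.12). The fibroblast marker Col1a1 was at a mean of 125 CPM in cKO and 87.7 CPM in Ctrl males (log2 fold change 0.52, edgeR adjusted p = 0.0553). DESeq2 and limma voom called it in males, in the mean effect and for sex within cKO. The 6 fibroblast markers summed to 744 to 984 CPM in cKO males and 637 to 961 CPM in Ctrl males. The summed cardiomyocyte markers ran from 47951 to 58239 CPM in cKO males and from 54735 to 62095 CPM in Ctrl males. Their part in the values of the feedback genes was not tested.

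Covariation of the members from mouse to mouse was measured next. Pearson's r was computed for all 45 pairs of members on log2 CPM after the mean of each group was subtracted, with p-values from 100000 permutations within groups and Benjamini-Hochberg adjustment over the 45 pairs. Of these, 3 pairs passed an adjusted p under 0.05 over 26 mice. Spred1 and Spred2 were the closest, with r = 0.738 (permutation p = 0.00023, adjusted 0.0103) and rho = 0.724 (permutation p = 0.00049, adjusted 0.022), and r = 0.659 without the 2 mice farthest from the median of Spred1. Dusp1 and Dusp6 followed with r = 0.658 (permutation p = 0.00116, adjusted 0.0261) and rho = 0.613 (permutation p = 0.00246, adjusted 0.0553), and r = 0.598 without the 2 farthest mice. The third was Spry2 with Spred1, at r = 0.629 (permutation p = 0.00297, adjusted 0.0445), rho = 0.526 (permutation p = 0.0104, adjusted 0.127) and r = 0.566 without the 2 farthest. Etv5 was in none of these pairs, and its r with the other 9 genes lay between -0.02 and 0.44. Of all other tested genes 0.013% correlated with Dusp6 at least as highly as Dusp1 did, and 0.143% with Dusp1 at least as highly as Dusp6 did. The shares were 0.176% and 0.358% for Spred1 and Spred2, and 1.5% and 1.26% for Spry2 and Spred1, all over 26 mice. Each of these shares counts the partner gene itself.

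The females numbered 2 weighed differently on the pairs. Without them, over 24 mice, Dusp1 with Dusp6 had r = 0.725 (permutation p = 0.00063, adjusted 0.0283) and was the only pair to pass. Spred1 with Spred2 had r = 0.656 (adjusted permutation p = 0.092), and Spry2 with Spred1 had r = 0.406 (adjusted permutation p = 0.237). In both of these mice Spred1 and Spred2 were the lowest of their group and Spry1 the highest. The Ctrl female numbered 2 had 18.0 CPM of Spred1, 28.2 CPM of Spred2 and 40.1 CPM of Spry1, and the cKO female numbered 2 had 20.1, 24.5 and 45.3 CPM. With these 2 mice Spry1 correlated with Spred2 at -0.36 and with Spry2 at -0.30, and without them the values were 0.23 and 0.25. Neither pair passed with or without them, and their sign was set by these 2 mice. Dusp5 with Spry1 was at -0.41 over 26 mice and -0.53 over 24 (adjusted permutation p = 0.213 and 0.133), and passed in neither set.

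**Figure D4:**
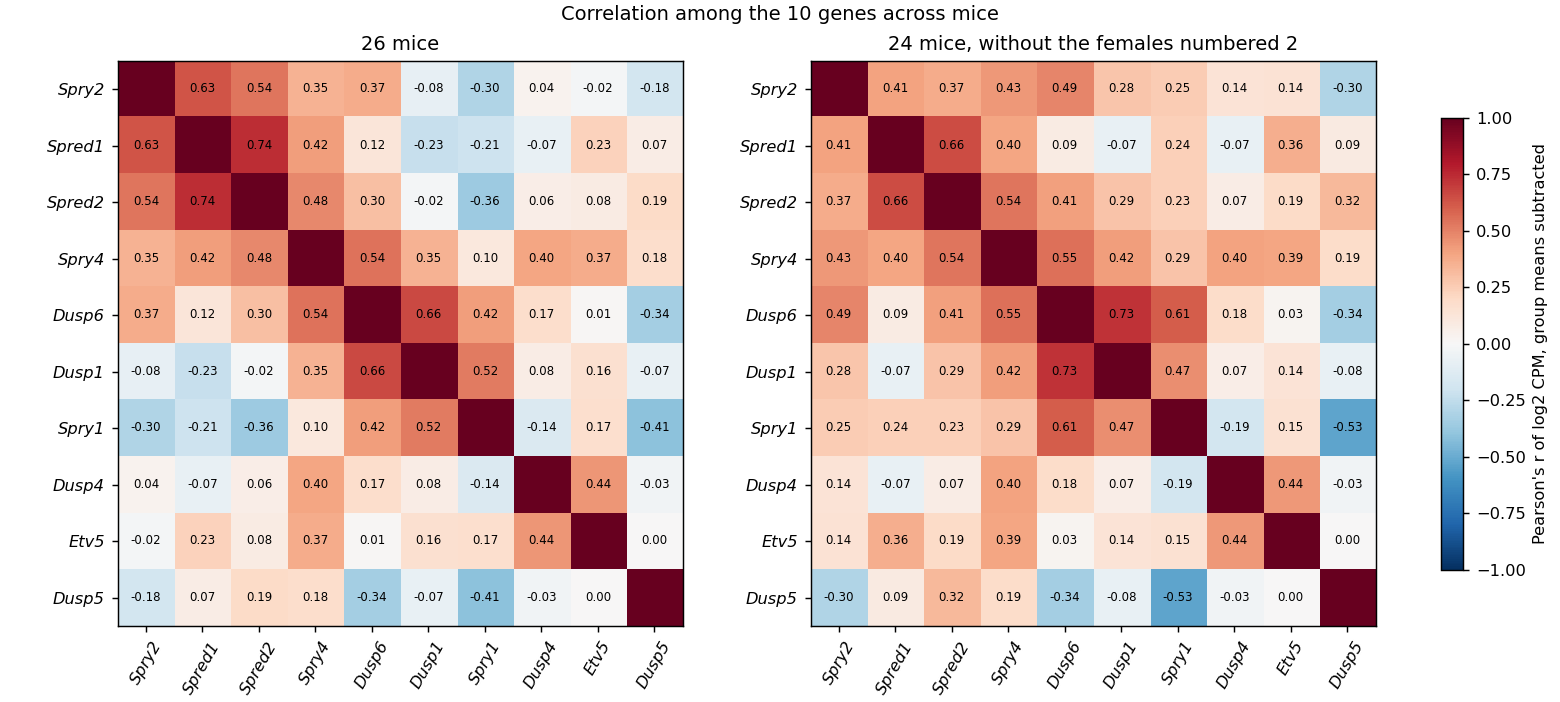
Pearson's r for each pair of the 10 genes across mice (log2 CPM with group means subtracted), over all 26 mice (left) and over 24 mice without the females numbered 2 (right). Dusp1 with Dusp6 is 0.66 and 0.73 in the 2 panels, whereas Spry1 with Spred2 goes from -0.36 to 0.23.

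**Figure D5:**
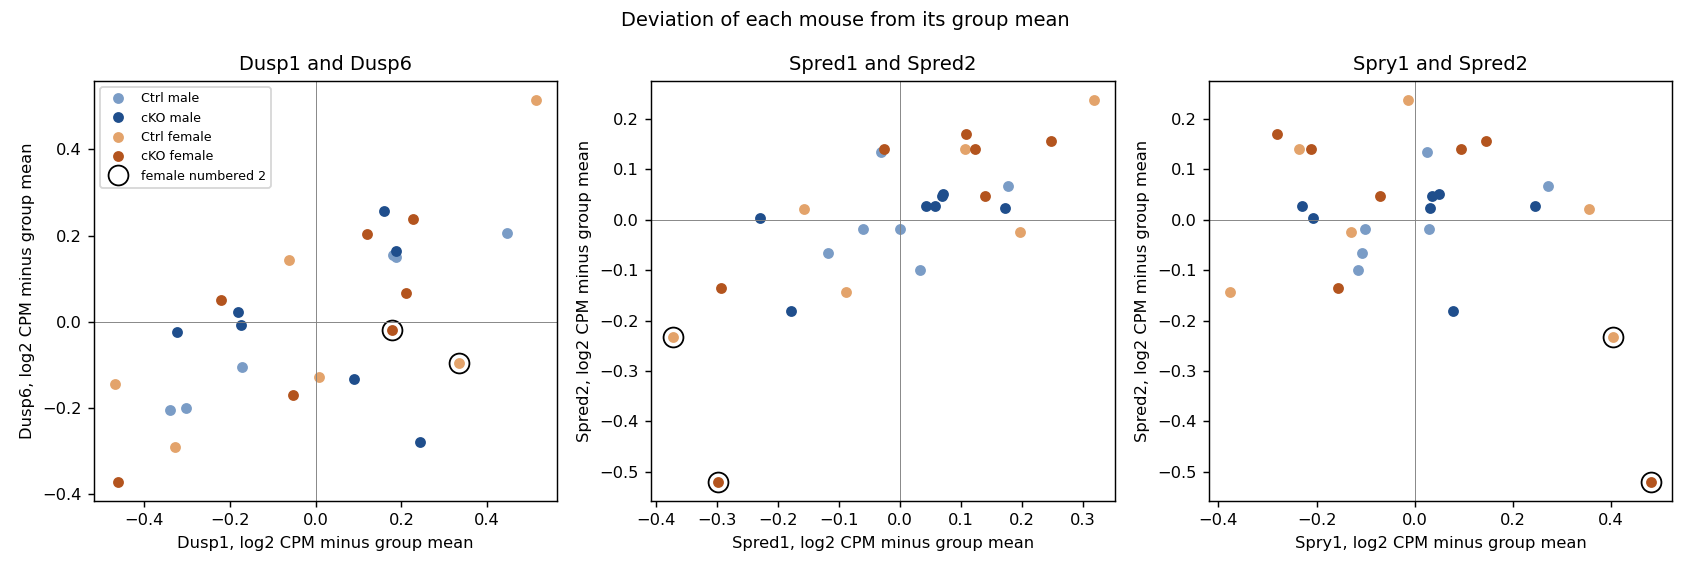
Each mouse's deviation from its group mean (log2 CPM) for Dusp1 with Dusp6, Spred1 with Spred2, and Spry1 with Spred2, coloured by group, with the 2 females numbered 2 circled. The circled mice lie at the lower left for Spred1 with Spred2 and at the lower right for Spry1 with Spred2.

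The promoters of the 2 pairs of highest r, Spred1 with Spred2 and Dusp1 with Dusp6, are shown beside those of Etv5, the gene of smallest p for genotype. The windows run from 250 bases before to 50 bases after the annotated start, are from RefSeq on GRCm38.p6 and are printed 5′ to 3′ on the strand of the gene. They matched 8 of the 10 members, with 9 windows in all, and not Dusp4 or Spry4. Capitals mark matches, on either strand, to a cyclic AMP response element (TGACGTCA), an AP-1 site (TGANTCA), a CArG box, an ETS core (GGAAG) or a GC box (GGGCGG), and matches may overlap.
Dusp1 (chr17:26508423-26508722, minus strand): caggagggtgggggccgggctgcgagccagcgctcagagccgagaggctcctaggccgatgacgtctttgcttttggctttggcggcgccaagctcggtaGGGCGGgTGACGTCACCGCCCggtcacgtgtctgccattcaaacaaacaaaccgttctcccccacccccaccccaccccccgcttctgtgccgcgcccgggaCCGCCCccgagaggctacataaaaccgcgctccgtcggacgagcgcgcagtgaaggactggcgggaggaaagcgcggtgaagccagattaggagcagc
Dusp6 (chr10:99262981-99263280, plus strand): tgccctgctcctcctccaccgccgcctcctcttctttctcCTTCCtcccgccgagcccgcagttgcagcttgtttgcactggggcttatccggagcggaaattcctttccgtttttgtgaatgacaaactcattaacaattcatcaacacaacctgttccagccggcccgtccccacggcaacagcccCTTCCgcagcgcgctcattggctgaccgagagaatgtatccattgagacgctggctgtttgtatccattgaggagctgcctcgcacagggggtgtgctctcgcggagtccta
Spred1 (chr2:117120821-117121120, plus strand): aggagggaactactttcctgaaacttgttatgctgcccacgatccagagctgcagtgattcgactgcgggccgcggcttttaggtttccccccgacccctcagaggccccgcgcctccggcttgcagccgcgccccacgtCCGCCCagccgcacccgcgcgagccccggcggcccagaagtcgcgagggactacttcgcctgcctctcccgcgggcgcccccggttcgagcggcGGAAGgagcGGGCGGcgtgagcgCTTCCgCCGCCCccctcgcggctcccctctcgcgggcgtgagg
Spred2 (chr11:19924192-19924491, plus strand): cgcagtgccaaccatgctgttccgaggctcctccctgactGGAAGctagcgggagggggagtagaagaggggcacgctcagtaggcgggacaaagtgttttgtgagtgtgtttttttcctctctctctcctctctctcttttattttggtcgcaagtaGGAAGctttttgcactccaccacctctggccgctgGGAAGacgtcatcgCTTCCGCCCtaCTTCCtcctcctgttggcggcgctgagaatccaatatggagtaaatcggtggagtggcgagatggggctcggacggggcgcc
Etv5 (chr16:22438319-22438618, minus strand): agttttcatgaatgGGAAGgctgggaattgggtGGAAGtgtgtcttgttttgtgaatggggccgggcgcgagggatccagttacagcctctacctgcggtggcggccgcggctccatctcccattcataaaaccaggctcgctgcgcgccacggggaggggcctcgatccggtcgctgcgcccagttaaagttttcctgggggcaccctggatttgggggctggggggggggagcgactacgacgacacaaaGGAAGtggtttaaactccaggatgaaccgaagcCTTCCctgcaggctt
Etv5, other start (chr16:22439521-22439820, minus strand): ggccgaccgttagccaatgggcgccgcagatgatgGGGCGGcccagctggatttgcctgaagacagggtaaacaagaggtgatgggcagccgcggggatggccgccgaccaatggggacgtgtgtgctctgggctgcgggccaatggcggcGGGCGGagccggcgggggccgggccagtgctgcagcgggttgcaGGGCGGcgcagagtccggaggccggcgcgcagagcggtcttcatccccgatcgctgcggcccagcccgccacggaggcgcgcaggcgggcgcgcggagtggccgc

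Dusp1 and Dusp6 shared no kind of match, whereas Spred1 and Spred2 both held ETS cores and GC boxes and none of the other motifs. Dusp1 held the only cyclic AMP response element of the 9 windows, beginning 143 bases before its start with a GC box on each side, and 1.79% of 32851 windows of the same length hold one. Dusp6 held 2 ETS cores and none of the other motifs. Spred1 held 2 ETS cores and 3 GC boxes, and Spred2 held 5 ETS cores and 1 GC box that overlaps an ETS core. Etv5 held 4 ETS cores in one window and 3 GC boxes in the other. ETS cores lay in 6 of the 9 windows and GC boxes in 6 of 9, against 71.4% and 35.7% of all windows. No AP-1 site was found (7.81% of all windows), and the CArG box was found only at Dusp5 (1.63% of all windows). These matches are a description of letters, not of binding.

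The genes most like each member across mice were named by a fixed rule, the 2 highest Pearson's r over 26 mice among genes at a mean of 1 CPM or more that are not members. Each was picked as the highest of very many correlations, so a high r arises by selection even without a relation, and none was tested. For Dusp1 they were Fos (r = 0.80), a classical immediate-early transcription factor, and Klf2 (0.79), and both held without the females numbered 2 (0.80 and 0.77). Spry1 was followed most closely by Cebpd (0.90) and Nfkbia (0.86), genes of the acute inflammatory response, again with little change without those mice (0.86 and 0.80). Spred2 was followed by Nrp1 (0.87), a co-receptor for vascular endothelial growth factor, and Rgl3 (0.84), which came to 0.77 and 0.70 without those mice, and Spred1 by Man1a (0.81) and 9430062P05Rik (0.79), at 0.79 and 0.73 without them. Spry2 had Zfp108 (0.86) and 2900052L18Rik (0.82), which had 0.62 and 0.51 in the 24 mice. Dusp5 was nearest to Rrad (0.71), a small GTPase that restrains cardiac calcium channels, and Zfp652 (0.69). Etv5 was nearest to Retreg1 and Map3k5 (0.74 each), Dusp6 to Tpbg (0.68) and Msto1 (0.66), Dusp4 to Polr1b (0.72) and Ankrd33b (0.71), and Spry4 to Rnf26 (0.73) and Ebf2 (0.72).

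Each member was also set against the summed level of each list, 190 relations in all. Over 26 mice 2 passed an adjusted permutation p under 0.05. Spred1 was lower in mice with a higher immediate-early sum, with r = -0.791 (permutation p = 5e-05, adjusted 0.0095), rho = -0.700 (permutation p = 0.00025) and r = -0.685 without the 2 mice farthest from the median. Spry2 and the sum of the other DUSP genes had r = -0.602 (permutation p = 0.00017, adjusted 0.0161), rho = -0.620 (permutation p = 0.0014) and r = -0.578 without the 2 farthest. Without the females numbered 2 the values were -0.670 and -0.679, each with an adjusted permutation p of 0.151, so neither passed over 24 mice.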

How the data were processed

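RNA sequencing of poly-A selected RNA gave 1 library for each of 26 left ventricles. The values the authors deposited are unnormalized whole-number counts for each gene. Per the submitters' processing notes the tools were FastQC 0.74, cutadapt 4.6, STAR 2.7.11a and HTSeq, with build GRCm39. The annotation release, and whether counting used the strand, are not given in the sources used here, so reads of overlapping antisense genes may be included.

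Analysis used R 4.3.3 and edgeR 4.0.16. The filterByExpr function, at its minimum count of 10, chose the genes, which were scaled by TMM and fitted with 1 mean per group over all 26 samples and robust quasi-likelihood F tests. Benjamini-Hochberg adjustment ran over the 15357 tested genes, with a threshold of 0.05. Each standard error is the absolute log2 fold change divided by the root of its F value. CPM used TMM-scaled totals, and log2 CPM a prior count of 2. Exon lengths and chromosomes came from GENCODE M21. The titles number the samples of a group as replicates, taken here as separate mice, and p-values measure the spread between these samples. The 72 within-group pairs of libraries differed by a chi-square per degree of freedom of 7.19 to 33.4, so none was a duplicate. Total counts ran from 14403102 to 30867399, and the members had at least 27 counts in every library.

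The members, the 7 pathway lists, the 12 cell type marker lists and the tests were chosen with earlier results of these data known. Genes named besides the members are, for each pathway list, those called in any contrast or otherwise that of smallest p in males and in females, the 2 genes most like each member, and Ppp2r2a. Ksr1, Mapk3, Cdkn1a, Tnni3, Tnnt2, Col1a1 and Cfd lie outside this rule and were chosen after their values were seen. Permutation tests are two-sided. Alternatives were DESeq2 1.42.0 size factors and its Wald test, limma 3.58.1 voom with quality weights, a floor of 5 CPM on the mean, no filter at all, fits of the compared groups only, the replicate block, an offset for transcript length and GC content with and without that block, omission of Ctrl males 3 and 6, and each mouse left out in turn. Omission of the females numbered 2 was chosen after seeing the data. The methods were checked on simulated data.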

Additional observations from a re-analysis of the deposited data

Results flagged for a closer look

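Values of each member in each group were checked for a mouse far from the rest of its group by Dixon's test. Of 40 groups of values, 6 held such a mouse, and chance alone flags about 5% of groups. Dusp4 was at 6.55 CPM in cKO female 7, with the next mouse at 2.90 CPM, and the same mouse had the highest Spry4 of its group at 27.9 CPM, with the next at 20.1 CPM. Spry4 was also far above its group in cKO male 5, at 23.3 CPM against a next value of 17.7 CPM. Spry1 was at 40.1 CPM in Ctrl male 6, against a next value of 33.9 CPM. Low values were those of Spry2 in Ctrl female 2, at 7.75 CPM with the next at 12.8 CPM, and of Spred2 in cKO male 4, at 30.5 CPM with the next at 34.6 CPM. No group of Etv5, Dusp1, Dusp5, Dusp6 or Spred1 held such a mouse.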

How the results depend on the processing

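The count of members called changed in the mean genotype effect and in sex within cKO. In the mean genotype effect it was 0 in the reported fit and 1, Etv5, with the DESeq2 Wald test and with a mean of at least 5 CPM, and 0 to 1 with each mouse left out. For sex within cKO it was 0, and 1 with limma voom (Dusp5). Pairs of members passing numbered 3, and 1 without the females numbered 2; the cause was not tested. Of 634 member fold changes under alternatives 608 kept their direction and side of the threshold, 3 gained a call and 23 changed sign. All 23 were results with a reported log2 fold change between -0.03 and 0.08. The reported fit called no member, so none could lose a call. With the replicate block 0 members were called in each of the 6 contrasts, and Etv5 in the mean effect had 0.35 (adjusted p = 0.0792). Same-numbered mice correlated at -0.163 to 0.088 in males and -0.0969 to 0.404 in females, with 1 and 2 of 6 closest to their own number. The mean was -0.0259 in males, against 0.0043 for differently numbered mice. In females it was 0.118 against -0.0186, with 3 of 6 pairs over 0.1. The reported fit did not pair the mice by number, and whether a number marks a shared batch in females was not tested.

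Changed signs were as follows, as log2 fold changes. With limma voom they were 0.0213 for Dusp1 and -0.00455 for Spry2 in females, and 0.0254 for Spred1 in sex within cKO. Without a filter they were -0.00027 for Spry2 and -0.00157 for Spred2 in sex within Ctrl. With the replicate block they were -0.0491 for Dusp4 in males, -0.0158 for Dusp4 in the mean effect, and -0.000128 for Spry2 and -0.00193 for Spred2 in sex within Ctrl. With the length and GC offset they were 0.0148 for Spry2 in the mean effect and 0.0459 for Spred1 in sex within cKO. With that offset and the block they were -0.0414 for Dusp4 in males, 0.00131 for Dusp1 in females, -0.011 for Dusp4 and 0.0138 for Spry2 in the mean effect, and 0.0349 for Spred1 in sex within cKO. Without Ctrl males 3 and 6 they were -0.0106 for Dusp4 in males, -0.0332 for Etv5 in the interaction, and -0.038 for Spry2 and -0.00589 for Spred2 in sex within Ctrl. Without the females numbered 2 they were 0.00811 for Dusp1 and -0.0465 for Spry2 in females, and 0.028 for Spred1 in sex within cKO.

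With each mouse left out in turn, 53 of 1040 values changed sign. The range in males was -0.14 to 0.22 for Dusp4, -0.00964 to 0.0826 for Dusp6 and -0.0114 to 0.12 for Spry4. The range in females was -0.12 to 0.0831 for Dusp1, -0.0754 to 0.0831 for Spry2 and -0.14 to 0.35 for Dusp4. The range in the interaction was -0.0765 to 0.0815 for Etv5, -0.14 to 0.34 for Dusp4, -0.00463 to 0.11 for Spred2 and -0.00929 to 0.19 for Spry4. The range in the mean effect was -0.0956 to 0.0198 for Dusp5, -0.0756 to 0.00364 for Spry2 and -0.0657 to 0.19 for Dusp4. The range in sex within Ctrl was -0.0473 to 0.11 for Spry2, -0.0455 to 0.0488 for Spred2, -0.0127 to 0.12 for Spred1 and -0.0309 to 0.39 for Dusp4. The range in sex within cKO was -0.0598 to 0.0306 for Spred1.

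Over all genes the number called ran from 7 to 399 in males, 1 to 9 in females, 56 to 549 in the mean effect, 40 to 253 for sex within Ctrl and 244 to 707 for sex within cKO, against 68, 5, 205, 98 and 414, and leaving out Ctrl male 5 left 4 in males. Dusp4 had the fewest counts of the members, with 27 in its lowest library, and it was not tested with a mean of at least 5 CPM.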
